A study of Homo sapiens with 5 samples.

Results

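DLX-positive neuronal precursors were the nondividing cells of the day 22 library that held transcripts of DLX1 and DLX2 but little GNRH1. A cell barcode was a member when it had at least 1500 unique molecular identifiers (UMIs), at least 1000 genes and under 20% mitochondrial UMIs, with 3 or more UMIs of DLX1 and DLX2 together, at most 1 UMI of MKI67 and TOP2A together, and GNRH1 below 500 CPM (UMIs per 1000000 UMIs of the cell). This rule found 500 of 9539 kept cells of day 22, or 5.24% (exact interval 4.8 to 5.71%), out of 9824 barcodes of that day and 44007 in the series. They were compared with 6012 kept cells of the same library that had the same limit on MKI67 and TOP2A and no UMI of DLX1 or DLX2, called DLX-negative here. "Nondividing" means within this limit only, so a cell of either set may hold 1 UMI of MKI67 or TOP2A.

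All cells came from WA09, an established human embryonic stem cell line of wild-type genotype, differentiated towards GnRH neurons. Inhibitors of the BMP and activin branches of SMAD signalling were followed by FGF8 and then by the Notch inhibitor DAPT, which every group used here had received, and the cells had been frozen and thawed during the FGF8 stage. Droplet-based 3′ single-cell RNA-seq was done once at each of days 22, 24 and 26. With 1 library a day no replicate error exists, so intervals are 95% intervals of counting error only, and no comparison was tested.

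DLX genes encode homeodomain transcription factors that mark progenitors of the ventral forebrain and the GABAergic neurons that arise from them. They lie in pairs, DLX1 with DLX2 and DLX5 with DLX6, and the pair on chromosome 2 is known to be switched on before the pair on chromosome 7. In the ventral forebrain GSX2 acts upstream of DLX1 and DLX2, whereas NEUROG1 and NEUROG2 start the glutamatergic programme of the dorsal forebrain and many sensory lineages. Because DLX1 and DLX2 chose the cells, their levels and those of MKI67, TOP2A and GNRH1 are a description of the choice.

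DLX1 (ENSG00000144355) spans chr2:172084740-172089677 on the plus strand of GRCh38, and DLX2 (ENSG00000115844) spans chr2:172099438-172102900 on the minus strand, with 9760 bases between them. DLX5 (ENSG00000105880) lies at chr7:97020396-97024950 on the minus strand and DLX6 (ENSG00000006377) at chr7:97005553-97011040 on the plus strand. The antisense gene DLX6-AS1 (ENSG00000231764, chr7:96955141-97014088, minus strand) overlaps DLX6 on the opposite strand, and the sources used here do not give the strand setting of the counting, so reads of this pair may not be told apart. Promoters are shown for DLX6-AS1 and GAD2, which headed the genes higher in DLX-positive cells, and for NEUROD4 and NEUROG1 of the opposite group. They are the 250 bases before the RefSeq start on GRCh38.p14, written 5′ to 3′ on the strand of the gene. Capitals mark TAATTA, the core letters read by many homeodomain proteins, or CAGCTG, an E-box read by many proneural bHLH proteins, and each motif is its own reverse complement. Only promoters that held the marked motif were printed, so they do not show how common a motif is.
DLX6-AS1, chr7:97014066-97014315, minus strand: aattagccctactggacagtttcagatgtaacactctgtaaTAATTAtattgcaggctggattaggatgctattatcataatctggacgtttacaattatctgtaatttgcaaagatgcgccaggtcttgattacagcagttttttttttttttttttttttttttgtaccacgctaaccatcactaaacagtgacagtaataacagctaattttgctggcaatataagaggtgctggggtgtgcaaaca
GAD2, chr10:26216122-26216371, plus strand: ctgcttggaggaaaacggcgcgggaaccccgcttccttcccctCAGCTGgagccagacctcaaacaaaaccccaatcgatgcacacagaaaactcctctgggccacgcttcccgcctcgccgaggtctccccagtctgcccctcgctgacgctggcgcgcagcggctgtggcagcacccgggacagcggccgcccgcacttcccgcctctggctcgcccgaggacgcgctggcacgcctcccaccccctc
NEUROD4, chr12:55019724-55019973, plus strand: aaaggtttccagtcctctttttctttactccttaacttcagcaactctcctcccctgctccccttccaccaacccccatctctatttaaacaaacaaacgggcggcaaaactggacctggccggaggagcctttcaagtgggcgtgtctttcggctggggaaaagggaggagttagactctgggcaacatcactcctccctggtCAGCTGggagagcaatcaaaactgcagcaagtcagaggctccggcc
NEUROG1, chr5:135535965-135536214, minus strand: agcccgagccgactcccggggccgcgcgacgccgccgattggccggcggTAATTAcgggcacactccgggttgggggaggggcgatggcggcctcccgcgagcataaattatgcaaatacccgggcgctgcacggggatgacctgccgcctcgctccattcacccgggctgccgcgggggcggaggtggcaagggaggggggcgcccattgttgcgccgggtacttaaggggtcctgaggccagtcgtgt

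The same letters occurred on either side of the contrast. CAGCTG was in the 250 bases of 15 of 63 genes at least 2-fold higher in DLX-positive cells for which RefSeq gave a promoter (23.8%) and of 30 of 133 lower genes (22.6%), against 16.0% of 4516 genes tested and 16.7% of all 27305 genes in the table. TAATTA was in 5 of the 63 (7.94%) and 10 of the 133 (7.52%), against 2.83% of the genes tested and 5.37% of all. The higher genes with CAGCTG included GAD2, ISL1, RGS16 and ID2, and the lower ones NEUROD4, HES6, EBF1 and PPP1R17. A match describes these windows only and shows no binding.

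The members held a median of 7 UMIs of DLX1 and DLX2 together and at most 45. Of the 500 cells, 446 held both transcripts, 42 held DLX1 only and 12 held DLX2 only. DLX1 was at 495 CPM, here taken from the UMIs summed over all cells of a set, and DLX2 at 284 CPM. Depth was close between the sets, with a median of 11645.5 UMIs and 3166.5 genes in DLX-positive cells and 11765.5 UMIs and 3313 genes in DLX-negative cells. The members shared no barcode with day 24 and 2 with day 26.

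Just inside the limit, 79 members had exactly 3 UMIs of DLX1 and DLX2. Just outside it, 89 cells under the GNRH1 limit had 2. ATP2B4 was at 174 CPM in the former and 147 CPM in the latter, and SOX2 at 297 and 398 CPM. DLX5 was at 46.3 and 11.9 CPM, and NEUROG1 at 132 and 167 CPM. For these genes the cells beside the limit lay between the whole member set and the DLX-negative cells, except that SOX2 with 2 UMIs was above both.

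Among 5578 genes with at least 20 CPM in one of the sets, leaving out the genes of the rule, 87 (1.56%) were at least 2-fold higher in DLX-positive cells and 173 (3.10%) at least 2-fold lower, 4.66% in all. The median log2 ratio of all genes tested was -0.05. The counts for each list below are to be read beside these shares. "Higher" and "lower" below mean past 2-fold in this contrast, which was the one used by the rule, so the counts describe the cells that were chosen. A gene that reached 20 CPM in one set alone could only be higher in that set, so its direction was fixed by the minimum. The 12 largest ratios upward included those of DLX6-AS1, GAD2, DLX5, DLX6, BARX1, SP9, GSX2, PLS3, ATP2B4 and SMAD9. Downward they belonged to NEUROG2, RELN, RSPO3, NPTX2, ARHGAP15, NEUROD4, CHRNA3, SLC6A15, NHLH1, CA4, LRFN1 and NEUROD1.

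**Figure D1:**
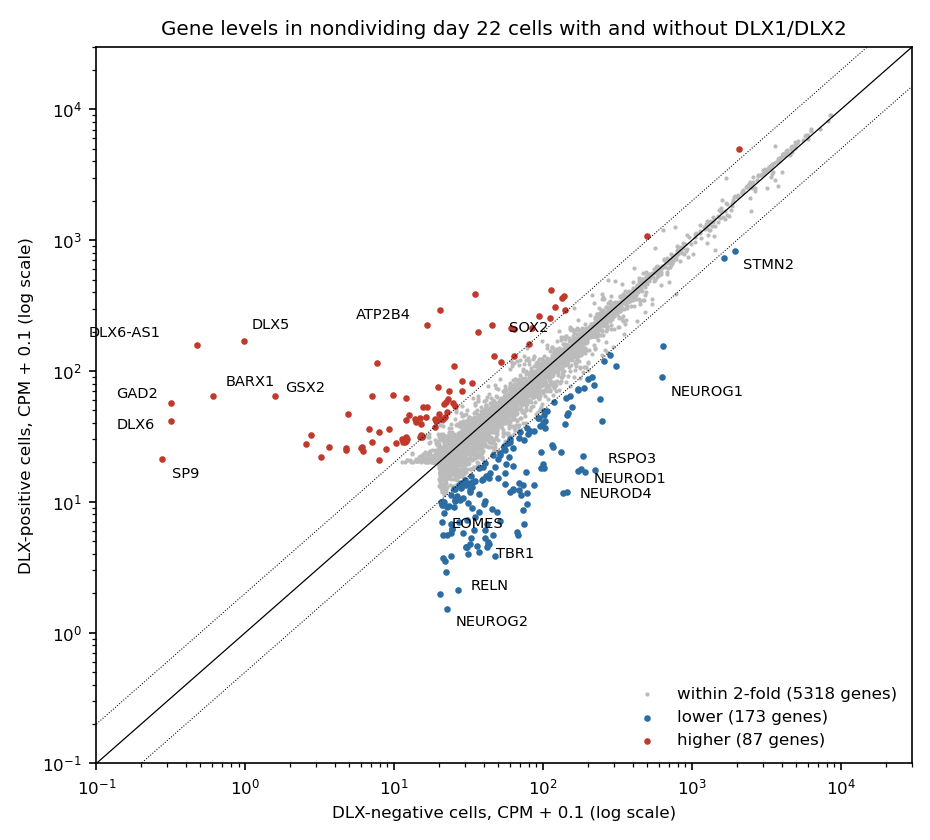
Level of each of the 5578 genes tested in DLX-negative cells (horizontal axis) and DLX-positive cells (vertical axis) of day 22, in CPM with 0.1 added, on log axes, 1 point per gene. Dotted lines mark 2-fold, red points are the 87 higher genes and blue points the 173 lower genes. The DLX genes of chromosome 7, GAD2, BARX1 and SP9 stand apart at the left, below 1 CPM in DLX-negative cells.

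Of the other DLX genes, 3 could be compared. DLX5 was at 168 CPM in DLX-positive cells and 0.875 CPM in DLX-negative cells, a log2 ratio of 7.59 (interval 7.22 to 7.97). For DLX6-AS1 the levels were 158 and 0.377 CPM (log2 ratio 8.71, interval 8.17 to 9.31), and for DLX6 they were 41.3 and 0.215 CPM (log2 ratio 7.58). These 3 genes reached 20 CPM only through the DLX-positive cells, so each could be compared only by being higher there, while DLX3 gave 1 UMI and DLX4 none in the members. The chromosome 7 genes were not detected in every member. A UMI of DLX5 was found in 39.6% of the DLX-positive cells, of DLX6 in 23.2% and of DLX6-AS1 in 19.4%, and any of them in 41.2% (interval 36.8 to 45.7%), against 1.05% of DLX-negative cells at a near-equal depth. After each cell was thinned to 1500 UMIs, the share with DLX5 was 16.6% and with DLX6-AS1 10.8%. These shares depend on depth, and a cell without a UMI may still express the gene.

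Of 18 listed factors of ventral forebrain progenitors, 6 reached 20 CPM, of which 4 were higher, 2 within 2-fold and none lower, with a median log2 ratio of 2.49. GSX2 and SP9 reached that minimum only through the DLX-positive cells, so they could enter the count only by being higher. GSX2 was also one of the genes that named these cells. GSX2, a homeodomain factor of the ganglionic eminences, stood at 63.8 against 1.48 CPM (log2 ratio 5.43, interval 5.12 to 5.75), with the caution that AC058822.1 overlaps it on the same strand. It was found in 36.4% of DLX-positive cells and 1.13% of DLX-negative cells. SP9, a zinc-finger factor of GABAergic precursors, was at 21.1 and 0.175 CPM, and MEIS2 at 131 and 46.8 CPM. SP8 had a log2 ratio of 0.89 and SIX3, an anterior forebrain factor, one of -0.20. Below the limit of 20 CPM, GSX1 was at 10.6 against 1.41 CPM and HELT at 3.75 against 0.0673 CPM, but NKX6-2 was at 0.313 against 3.55 CPM. VAX1, at 14.5 against 14.1 CPM, MEIS1, at 18.0 against 14.9 CPM, and OLIG2, at 3.91 against 3.04 CPM, differed less. NKX2-1, which marks the medial part of the ventral forebrain, gave 1 UMI in the 500 cells, and NKX2-2 none, which allows up to 0.469 CPM.

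GAD2, which encodes an enzyme that makes GABA, was at 57.2 CPM against 0.215 CPM, which is a log2 ratio of 8.05 (7.33 to 8.88), and was found in 23.0% of the members. ISL1 was at 109 and 25 CPM, and SOX6 at 58.3 and 22 CPM. Of 18 listed genes 7 could be compared, and 4 were higher and none lower, with a median log2 ratio of 1.41. GAD2 reached 20 CPM only through the DLX-positive cells, so it could enter this count only by being higher. PBX3 and ZEB2 were within 2-fold. Further listed genes lay below the minimum of 20 CPM in both sets. SLC32A1, the vesicular GABA transporter, was at 17.2 CPM against 0.161 CPM, SCGN at 15.8 against 0.148 CPM and GAD1 at 5.94 against 0.161 CPM, while the interneuron factor LHX6 gave 1 UMI.

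Of 22 listed genes of the glutamatergic lineage, 14 could be compared, and 12 were lower and none higher, with a median log2 ratio of -2.96. In 10 of the 12 the level was under 20 CPM in DLX-positive cells, so that their direction was fixed by the minimum, and NEUROG1 and LHX9 were the others. Of the 12, PPP1R17 was within 2-fold (-0.71) when SOX2 and STMN2 classes were matched, and EMX1 (-0.85) with at least 1 UMI of DLX1 or DLX2. NEUROG1 was at 90.0 CPM against 626 CPM, a log2 ratio of -2.80 (interval -2.92 to -2.68). Further bHLH factors of neuronal commitment were lower too, with NEUROD1 at 17.8 against 181 CPM, NHLH1 at 16.9 against 190.0 CPM and NEUROD4 at 11.9 against 145 CPM. NEUROG2 was at 1.41 against 22.7 CPM, the largest ratio downward. TBR1 and EOMES, T-box factors of glutamatergic neurons and their precursors, were at 4.84 against 42.3 CPM and 8.60 against 72.9 CPM. EMX2 and LHX2 remained within 2-fold, at 191 against 351 CPM and 144 against 260.1 CPM.

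Some members also held UMIs of glutamatergic lineage genes. NEUROG1 was found in 28.2% of DLX-positive cells against 85.6% of DLX-negative cells, and NEUROD4 or NHLH1 in 9.20% against 75.1%. A doublet score of at least 0.25 was given to 30 members (6%) and to 124 DLX-negative cells (2.06%). Without such cells the log2 ratio went from -3.61 to -5.32 for NEUROD4, from -3.13 to -5.29 for TBR1, from -3.49 to -4.50 for NHLH1 and from -2.80 to -3.28 for NEUROG1. Much of the remaining signal of NEUROD4 and TBR1, and part of that of NHLH1 and NEUROG1, thus lay in 30 of the 500 cells. The counts of TBR1 and NEUROD1 are uncertain, because SLC4A10 and CERKL overlap them in the same orientation.

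**Figure D2:**
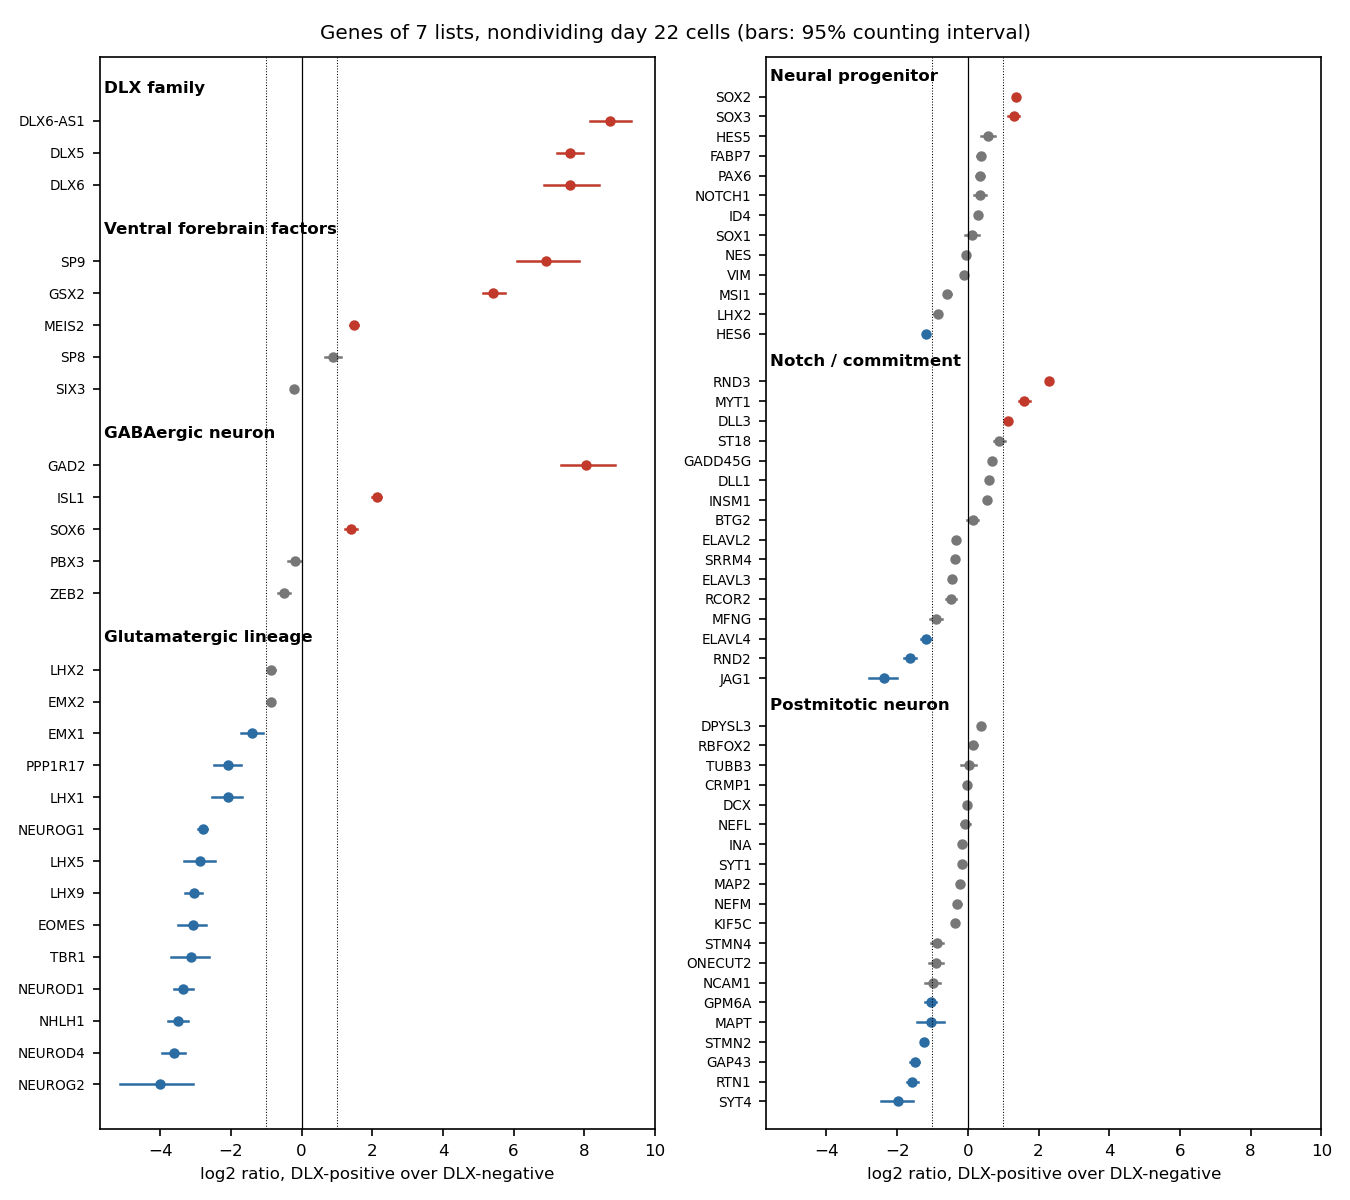
Log2 ratio of DLX-positive over DLX-negative cells at day 22 for genes of 7 lists that reached 20 CPM, some of which are not shown, with the 95% counting interval as a bar. Red is at least 2-fold higher, blue at least 2-fold lower and grey within 2-fold. DLX6-AS1 reaches 8.71, GAD2 8.05 and SP9 6.91, and 12 of 14 glutamatergic lineage genes lie below -1.

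Most neural progenitor genes did not part the sets by 2-fold. Of 13 neural progenitor genes that could be compared, 2 were higher and 1 lower, with a median log2 ratio of 0.28. Among all 5578 genes tested, 1.56% were higher and 3.10% lower. SOX2, which maintains the progenitor state, was at 306 CPM against 120 CPM, a log2 ratio of 1.36, and SOX3 at 70.3 against 28.6 CPM, but SOX3 was within 2-fold (0.91) under the weighting by SOX2 and STMN2 classes given below. Intermediate filament genes did not part the sets, with VIM at 3206 against 3428 CPM and NES at 224 against 231 CPM. HES6, a bHLH factor of early neuronal differentiation, was lower, at 726 against 1650 CPM, though its log2 ratio was -0.93 when cells with at least 1 UMI of DLX1 or DLX2 were taken. HES5, a target of Notch signalling, was at 38.4 and 25.7 CPM, and HES1 gave only 2 UMIs in the members.

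Notch ligands went both ways. DLL3 was at 1078 CPM against 495 CPM (log2 ratio 1.12, interval 1.09 to 1.16), and its log2 ratio was 0.93 with at least 1 UMI of DLX1 or DLX2. DLL1, which AL078605.1 overlaps on the same strand, was at 331 against 220.1 CPM, a log2 ratio of 0.59. JAG1 was at 8.75 against 45.4 CPM, and it reached 20 CPM only in DLX-negative cells, so it could only be lower. The zinc-finger factor MYT1, at 70.3 against 23.2 CPM, and the small GTPase RND3, at 223 against 45.5 CPM, were higher, while its relative RND2 was lower, at 47.8 against 148 CPM. In all, 3 of 16 commitment genes were higher and 3 lower, with a median log2 ratio of -0.10. Of all genes tested, 1.56% were higher and 3.10% lower. ELAVL4, one of the lower genes at -1.19, was at -0.64 when SOX2 and STMN2 classes were matched.

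Of 21 genes of postmitotic neurons, 7 were lower and none higher, with a median log2 ratio of -0.36. The share of lower genes among all tested was 3.10%. DCX, a microtubule protein of migrating neurons, was at 512 CPM against 525 CPM and TUBB3, which AC092143.1 overlaps on the same strand, at 33.8 against 33.1 CPM. STMN2 was at 831 against 1946 CPM and GAP43, a growth cone protein, at 77.7 against 220 CPM. By SOX2 and STMN2 together, 30.4% of the members held SOX2 only, 57.2% both and 8.4% STMN2 only, whereas of the DLX-negative cells 15.0% held SOX2 only, 38.3% both and 40.4% STMN2 only. When DLX-negative cells were weighted to the members' mix of these classes, 5 of the 7 lower genes were within 2-fold. The log2 ratio of GAP43 was then -0.29, that of RTN1 -0.67, that of GPM6A -0.41 and that of MAPT 0.033. STMN2 became -0.33 and SOX2 0.65, but these genes defined the weights. Under that weighting, which was chosen after seeing the data, the log2 ratio of ATP2B4 was 3.43, and 73 of the 87 higher and 130 of the 173 lower genes kept their call. MAPT and GPM6A were also within 2-fold without the limit on GNRH1, as were MAPT with at least 5 UMIs of DLX1 and DLX2 and GPM6A with at least 1 UMI of either.

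Most genes of the cell cycle outside the rule were within 2-fold, and the 2 that were not were lower. Both sets were held to the same limit on MKI67 and TOP2A, so likeness in genes of division is partly set by the rule. CDKN1C, an inhibitor of the cycle, was at 2979 CPM against 1699 CPM, and CENPF and CCNB2, which act in mitosis, at 61.6 against 44.3 CPM and 59.1 against 51.5 CPM. CCND1 was lower, at 38.9 against 140 CPM, and so was GADD45A, at 13.3 against 87.4 CPM. In this list 2 of 10 genes were lower and none higher, against 3.10% lower among all genes tested. GADD45A reached 20 CPM only in DLX-negative cells, so its direction was fixed by the minimum.

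Calcium pumps differed within their family. ATP2B4, a plasma membrane calcium pump, was at 225 CPM against 16.5 CPM (log2 ratio 3.77, interval 3.66 to 3.88), and was found in 83.6% of members (28.4% after thinning) against 12.6% (1.93%). ATP2B4 was one of the genes that named these cells, and it reached 20 CPM only through the DLX-positive cells. It could therefore be compared only by being higher there. ATP2B1, another pump of that family, was at 109 against 309 CPM, a log2 ratio of -1.50. The remaining 6 of 8 genes compared in the list lay within 2-fold, among them ATP2A2 and the calmodulin genes.

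The guidance gene NRP2, a receptor for semaphorins, was at 32.2 against 15.1 CPM. Of the 9 guidance genes compared, 3 were lower, against 3.10% of all genes tested. Among the 9, NRP2, RELN and SLIT2 reached 20 CPM in one set alone. RELN, a secreted glycoprotein that guides neurons, was at 2.03 against 26.8 CPM, SLIT2 at 14.8 against 39.2 CPM and PLXNA2 at 23.4 against 50.8 CPM, the last within 2-fold (-0.79) with at least 1 UMI of DLX1 or DLX2. Of the olfactory and neuropeptide genes, EBF1, EBF2 and EBF3, factors of olfactory and other sensory neurons, had log2 ratios of -3.19, -2.80 and -2.15. OMP gave no UMI in either set. Among anterior forebrain factors, DACH1 at 45.6 against 144 CPM was the only lower gene of 8. GNRH1 was found in 14 members (2.80%) and 33 DLX-negative cells (0.549%), and was at 4.06 and 1.10 CPM.

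Other leading genes lay outside the lists. BARX1, a homeodomain factor, was at 64.4 CPM against 0.511 CPM, a log2 ratio of 6.98, and was found in 29.4% of members against 0.532%. PLS3, an actin-bundling protein, was at 290.03 against 20.1 CPM and SMAD9, a mediator of BMP signals, at 32.3 against 2.65 CPM. Downward, RSPO3, a secreted enhancer of Wnt signalling, was at 17.5 against 224 CPM, and without cells of high doublet score its log2 ratio went from -3.68 to -5.34. CHRNA3, a nicotinic receptor subunit, was at 11.6 against 136 CPM and CA4, a carbonic anhydrase, at 6.72 against 74.4 CPM. CHRNA3 overlaps CHRNA5 on the opposite strand. BARX1 and SMAD9 reached 20 CPM only in DLX-positive cells, and RSPO3, CHRNA3 and CA4 only in DLX-negative cells, so their direction was fixed by the minimum.

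None of 22 markers of other cell types reached 20 CPM in either set. Summed, they were at 34.7 CPM in DLX-positive and 59.8 CPM in DLX-negative cells, and 10 of them, among them SOX10, GFAP, PECAM1 and PTPRC, were at 0 in the members, which allows up to 0.469 CPM each. Of the caudal and IRX genes, CRABP1 was lower, at 24.1 against 131 CPM, and IRX1 or IRX2 was found in 11% of members and 12.4% of DLX-negative cells.

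The members were far from uniform in GSX2 and GAD2. GSX2 without GAD2 was found in 145 cells (29.0%), both in 37 (7.40%), GAD2 without GSX2 in 78 (15.6%) and neither in 240 (48.0%), with median depths from 10715.5 to 12203 UMIs. DLX6-AS1 was at 5.16 CPM in cells with GSX2 only, 292 CPM in cells with both and 792 CPM in cells with GAD2 only. DLX5 was at 65.0, 406 and 553 CPM in the same order, and BARX1 at 23.2, 171 and 211 CPM. The intervals of the cells with GSX2 only lay apart from those of both other groups for each of these 3 genes.

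Some other genes were highest where GAD2 was not found. CDKN1C was at 3325 CPM with GSX2 only, 1431 CPM with both and 1375 CPM with GAD2 only, and GADD45G at 549, 315 and 188 CPM. ASCL2 was at 56.8 CPM with GSX2 only, 4.12 CPM with both and 11.5 CPM with GAD2 only. SOX2 was at 369, 196 and 233 CPM. VIM, at 3618, 3894 and 2079 CPM, and DLL3, at 1028, 1215 and 890 CPM, did not follow this order and were highest in cells with both genes. The neuronal gene STMN2 was at 368, 575 and 2381 CPM, and DCX at 375, 894 and 891 CPM, so that cells with both genes matched the GAD2-only cells in DCX but not in STMN2. ATP2B4 differed little, at 237, 212 and 216 CPM, and its intervals overlapped. Cells with neither gene resembled those with GSX2 only, with DLX5 at 74.1 CPM and CDKN1C at 3513 CPM, although DLX6-AS1 was at 34.1 CPM and STMN2 at 680 CPM. A cell without a UMI of GSX2 or GAD2 may still express it, since these genes gave few UMIs a cell.

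**Figure D3:**
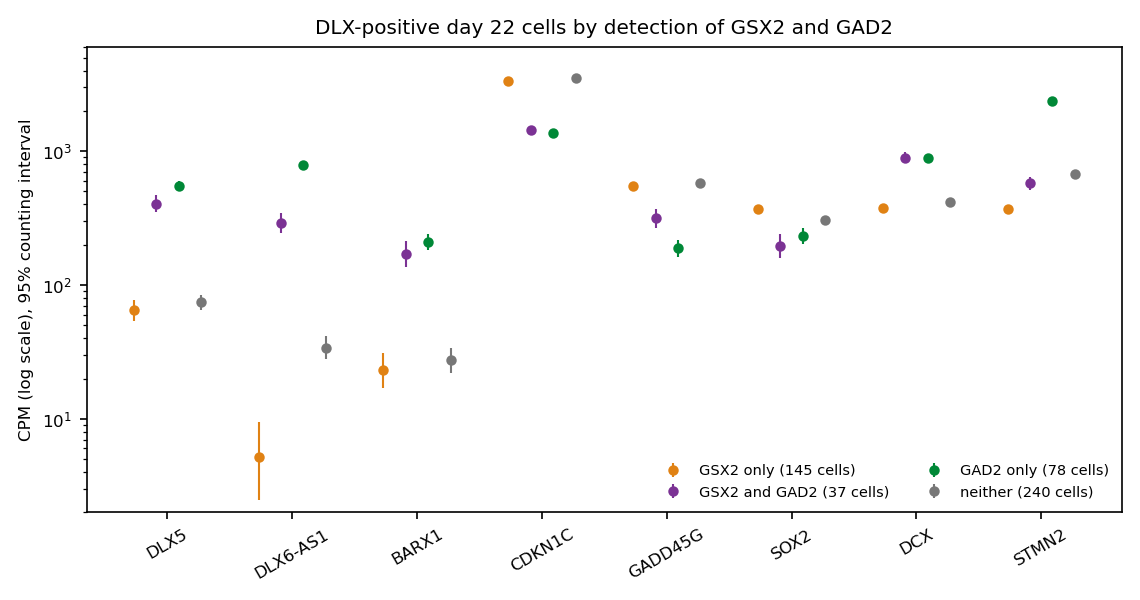
Level of 8 genes in DLX-positive day 22 cells grouped by detection of GSX2 and GAD2, in CPM on a log axis, with 95% counting intervals. Orange is GSX2 only, purple both, green GAD2 only and grey neither. DLX5, DLX6-AS1 and BARX1 are higher wherever GAD2 is found, and STMN2 is far higher in the cells with GAD2 only, at 2381 CPM.

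Clustering of the 500 cells on their own gave 6 sub-clusters at a Leiden resolution of 0.5, and 2 and 8 at resolutions of 0.3 and 0.8. They are referred to by number, and the genes that define them are a description. Sub-cluster 3, of 87 cells, had the highest DLX5, DLX6 and DLX6-AS1, the last at 786 CPM against 20.9 CPM in the other members. It was also led by GAD2, SCGN, GAP43, NEFL, RTN1 and STMN2, the last at 2815 against 398 CPM. Sub-cluster 5, of 62 cells, had the highest DLX1, at 1239 CPM, and GSX2, at 128 CPM, with DLX6 at 115 and GAD2 at 115 CPM but STMN2 at 219 CPM. It was led by HELT and PTX3, and also by ID2, CRB1 and BARX1.

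Sub-cluster 0, of 81 cells, was led by DIO3, which inactivates thyroid hormone, and CDKN1C, at 5493 against 2577 CPM, with TRH, FGF8 and ASCL2. Sub-cluster 1, of 103 cells, was led by CRH, at 41.7 CPM and 0 in the other members, with ZFP36L1, SFRP2, SPARC and ID3, and it had the most VIM, at 4397 CPM. Sub-cluster 4, of 46 cells, was led by TH, at 81.1 against 11.8 CPM, with CNTN2, GNG8 and CEP152. It had the most ATP2B4, at 409 CPM, and STMN2 at 1431 CPM with DLX6-AS1 at 20.3 CPM. DLX5, at 218 CPM, and DLX6, at 44.2 CPM, were above their levels in sub-clusters 0, 1 and 2. TH encodes the first enzyme of catecholamine synthesis and CNTN2 an axonal adhesion protein.

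Sub-cluster 2, of 121 cells, was led by genes of the opposite lineage, among them NEUROG1 at 194 against 48.0 CPM and NEUROD1 at 46.8 against 6.14 CPM. It was the deepest, with a median of 13665 UMIs, and 14 of its cells had a doublet score of at least 0.25. Sub-cluster 3 held 11 such cells among only 87 and sub-cluster 1 held 5 among 103, whereas sub-clusters 0, 4 and 5 held none. TBR1, at 22.7 CPM, and PPP1R17, at 29.6 CPM, were highest in sub-cluster 3, against 0.544 and 4.36 CPM in sub-cluster 2. The part of doublets in these levels, or in the lead of NEUROG1 in sub-cluster 2, was not tested.

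**Figure D4:**
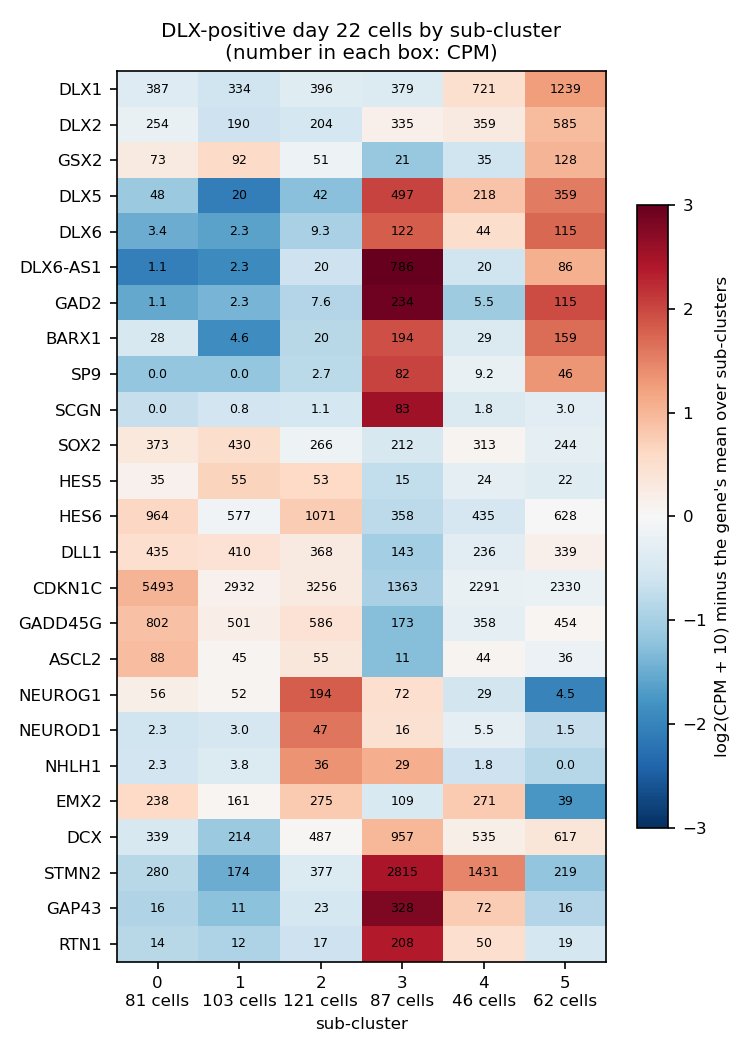
Level of 25 genes in the 6 sub-clusters of DLX-positive day 22 cells. The number in each box is the CPM, and the colour is log2(CPM + 10) minus the gene's mean over the sub-clusters. DLX6-AS1 and GAD2 are red in sub-clusters 3 and 5, DLX5 and DLX6 in 3, 4 and 5, STMN2 in 3 and 4, and NEUROG1 and NEUROD1 most strongly in 2.

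Dividing cells of day 22 that carried DLX1 and DLX2, with more than 1 UMI of MKI67 and TOP2A, numbered 233 and had a median of 17271 UMIs. GSX2 was at 78.9 CPM in these and 63.8 CPM in the nondividing members, and SOX2 at 422 and 306 CPM. ATP2B4 was at 92.0 and 225 CPM, DLX5 at 38.6 and 168 CPM, GAD2 at 14.2 and 57.2 CPM, and DCX at 209 and 512 CPM. GSX2 was thus also present in dividing cells, while DLX5, GAD2 and ATP2B4 were more abundant in nondividing ones. In dividing cells without DLX1 or DLX2, ATP2B4 was at 13.4 CPM and GSX2 at 4.8 CPM.

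The same limits were applied to the other libraries, whose cells the day 22 rule did not choose. They found 55 cells at day 24, or 0.604% of 9110 kept cells, and 338 at day 26, or 3.06% of 11060. Their median depths were 8116 and 9141 UMIs. All kept cells had medians of 12183, 7180.5 and 8486 UMIs at days 22, 24 and 26. A fixed limit of 3 UMIs is harder to reach at lower depth, so the shares depend on depth. Nondividing cells with 1 or 2 UMIs of DLX1 and DLX2 numbered 320, 272 and 635 in the same order. A further 116 and 661 DLX-positive cells were above the GNRH1 limit at days 24 and 26, against 10 at day 22. The GNRH1 limit thus removed most DLX-positive cells of the later days. At day 24, 182 of 5626 genes tested (3.23%) were higher and 412 (7.32%) lower, and at day 26 101 (1.60%) and 158 (2.50%) of 6322, or 10.6% and 4.10% in both directions together. GNRH1 was at 4.06, 23.3 and 105 CPM in the members of days 22, 24 and 26. Of the markers of other cell types, COL3A1 was the one called at day 24, at 23.3 against 0.611 CPM. In the day 24 members a level of 23.3 CPM was only 11 UMIs.

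GSX2 and ATP2B4, both among the genes that named these day 22 cells, were most abundant in the day 22 members. GSX2 was at 63.8 CPM at day 22, 27.5 CPM at day 24 and 0.559 CPM at day 26, and ATP2B4 at 225, 21.2 and 10.1 CPM. The later levels of GSX2 rest on 13 UMIs at day 24 and 2 UMIs at day 26. Other genes were higher in the later libraries, with GAD2 at 57.2, 294 and 281 CPM, DLX6-AS1 at 158, 553 and 395 CPM, SCGN at 15.8, 91.1 and 142 CPM, and STMN2 at 831, 6053 and 7316 CPM. Not every GABAergic gene did so, with ISL1 at 109, 99.6 and 61.2 CPM and SOX6 at 58.3, 23.3 and 58.9 CPM. A UMI of GAD2 was found in 23.0%, 81.8% and 74.3% of the cells and of DLX5 in 39.6%, 85.5% and 87.3%. Each day was 1 library, so day and library cannot be told apart.

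Fewer of the day 22 calls were met at day 26 than at day 24, and fewer of all genes tested were called at day 26 too. Higher genes were 3.23% of all tested at day 24 and 1.60% at day 26, and lower genes 7.32% and 2.50%. Of the 87 genes higher at day 22, 54 could be compared at day 24, with 34 higher, 1 lower and a median log2 ratio of 1.73, and 49 at day 26, with 19 higher, 1 lower, 29 within 2-fold and a median of 0.46. Of the 173 lower genes, 59 of 111 were lower at day 24 and 28 of 99 at day 26, with 1 and 3 higher, 51 and 68 within 2-fold and medians of -1.07 and -0.36. SOX2 had log2 ratios of 1.36, 4.04 and 3.31 at days 22, 24 and 26, and ISL1 of 2.13, 4.39 and 2.65. TBR1 had -3.13, -3.21 and -2.11, and LHX9, a LIM homeodomain factor, -3.05, -2.30 and -2.63.

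Some factors were within 2-fold at day 22 and past it later. SIX3 had log2 ratios of -0.20, 1.81 and 2.30 and was at 571 against 116 CPM at day 26. EMX2 had -0.87, -2.75 and -2.27 and LHX2 had -0.85, -2.62 and -1.87. MEIS2 was higher at day 22, with 1.49, but had -0.21 and -0.29 later. Of the genes of postmitotic neurons, 7 of 21 were lower at day 22, 4 of 22 at day 24 and 1 of 22, ONECUT2, at day 26. Among all genes tested, 3.10%, 7.32% and 2.50% were lower on these days. The log2 ratio of STMN2 was -1.23, -0.60 and -0.16. These differences between days were not tested.

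**Figure D5:**
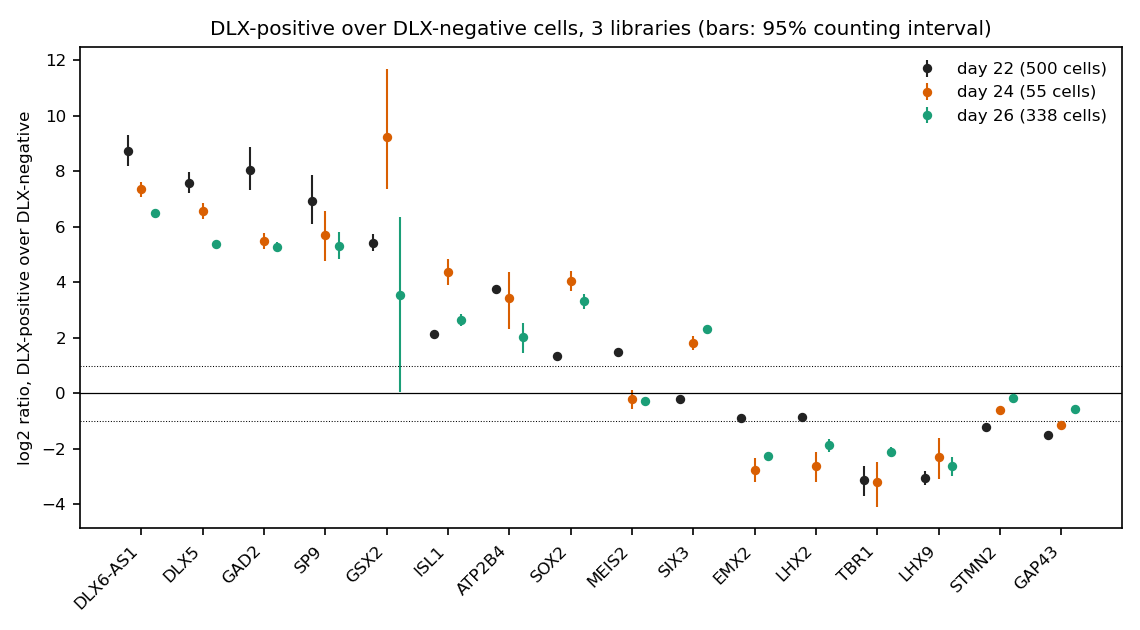
Log2 ratio of DLX-positive over DLX-negative nondividing cells for 16 genes at day 22 (black, 500 cells), day 24 (orange, 55 cells) and day 26 (green, 338 cells), with 95% counting intervals and dotted lines at 2-fold. DLX6-AS1, GAD2 and ISL1 stay above 1 on each day, SIX3 is near 0 at day 22 and above 1 later, and STMN2 approaches 0.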

How the data were processed

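UMI counts per gene and cell barcode, as the authors deposited them for days 22, 24 and 26, were used. The authors aligned the reads to GRCh38 and counted UMIs with Cell Ranger (3.1.0 in the file headers, 3.1 in the submitters' processing notes), and whether doublets were removed is not given in the sources used here. The multiplexed library of earlier days was used for its number of barcodes only. Counts were summed per set and given as CPM with an exact Poisson interval. For the log2 ratio the interval was exact and binomial, from how a gene's UMIs divided over the sets, and shares have Clopper-Pearson intervals. A count of 0 allows 3 counts of the total, which for the DLX-negative cells is 0.0404 CPM. PCR duplicates were removed by UMI, and intervals and limits cover counting error only. Total counts were 131187195 UMIs in kept cells of day 22, 70240335 of day 24 and 99677924 of day 26, and 27 to 37 barcodes were shared by pairs of these libraries. Shares were also taken after thinning each cell to 1500 UMIs, which left out no member at 1500.

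Doublet scores came from Scrublet in scanpy 1.11.5 with an expected rate of 6%. Its automatic threshold of 0.242 marked 413 of 9539 kept cells (4.33%). They were kept in the main values. Members were clustered on 2000 variable genes, 20 principal components and 15 neighbours (Leiden). Positions came from GENCODE 44, and promoters from RefSeq on GRCh38.p14, which held 17 of the 24 leading genes. The ratio was tested on simulated data. Genes named are those of the rule and label, list members with at least 20 CPM or that define a list, the 12 largest ratios in each direction, and the 10 leading genes of each sub-cluster. The members and lists were chosen with earlier results of these data known. Genes called in opposite directions on different days were named after their values were seen. Alternatives covered the limits of the rule, depth, doublets and the minimum CPM. Some genes of the lists are counted but not reported here by name.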

Additional observations from a re-analysis of the deposited data

Results flagged for a closer look

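At least 2-fold differences in opposite directions at day 22 and a later day were found for 5 genes, each named after its values were seen. Of the day 22 calls, 54 higher and 111 lower genes could be compared at day 24, and 49 and 99 at day 26. The difference between days was not tested, since each day was 1 library. RASGEF1B was at 12.2 CPM in DLX-positive and 62.8 CPM in DLX-negative cells at day 22 (log2 ratio -2.36). Its log2 ratio was 2.18 at day 24, at 27.5 against 6.06 CPM, and 1.59 at day 26, at 20.7 against 6.88 CPM. In the 55 members of day 24, a level of 27.5 CPM was only 13 UMIs. BTBD17 was at 61.3 against 242 CPM at day 22 (log2 ratio -1.98) and had a log2 ratio of 1.79 at day 26, at 46.6 against 13.5 CPM. SLCO3A1 was at 8.91 against 33.3 CPM at day 22 and had a log2 ratio of 1.38 at day 26, at 141 against 53.9 CPM. FAM13C was higher at day 22, at 31.4 against 15.2 CPM (log2 ratio 1.05). At day 24 its log2 ratio was -1.02, at 38.1 against 77.5 CPM, so both ratios lay close to the 2-fold limit. CDH7, a cadherin, was higher at day 22, at 60.5 against 22.9 CPM, and had a log2 ratio of -1.11 at day 26. The minimum of 20 CPM fixed the direction of RASGEF1B on each day, of SLCO3A1 and FAM13C at day 22, and of BTBD17 at day 26.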

How the results depend on the processing

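No paired analysis was possible because each day was 1 library. The share of members was 5.24% of kept cells. It was 3.78% with at least 5 UMIs of DLX1 and DLX2, 8.59% with at least 1, and 4.22% with no UMI of MKI67 or TOP2A. With a minimum of 5 CPM, 192 genes were higher and 431 lower, against 87 and 173 of 5578 genes tested. That minimum let more genes be compared, so its larger counts do not show a larger difference between the sets. Under the other settings, all with the minimum of 20 CPM, 70 to 94 genes were higher and 134 to 199 lower. A Leiden resolution of 0.3 gave 2 sub-clusters in place of 6. Of 62 named genes past 2-fold, 49 stayed past it in the same direction under all 12 alternatives. For 13 it was lost in at least 1, mostly when DLX-negative cells were weighted to the members' mix of SOX2 and STMN2 classes, a setting chosen after seeing the data. MAPT then had a log2 ratio of 0.033 against -1.05, and PPP1R17 had -0.71 against -2.08. SOX2 and STMN2 are among the 13, but they defined that weighting. Of the 12 alternatives, the minimum of 5 CPM left every ratio as it was, so no gene could be lost under it. The named genes also include the 12 largest ratios in each direction, chosen from this same contrast. Applying the GNRH1 limit to both sets, also chosen after seeing the data, left 86 and 173 calls. At day 24 only 55 cells carried the contrast, and 472025 UMIs limited its low genes.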
